A study of Danio rerio with 12 samples.

Results

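The 56 long noncoding transcripts described here are the genes of the deposited table that hold values and carry the biotype antisense, lincRNA or processed transcript. Of the 400 genes with values in cardiac tissue of zebrafish (Danio rerio), they make up 14%. Antisense transcripts account for 41 of them, long intergenic noncoding RNAs (lincRNA) for 6 and processed transcripts for 9. The clones CR762497.1 and AL831745.1, which carry the same biotypes, are not part of the set and were not analysed here. RNA came from a line that carries ATF3, a stress-induced transcription factor, as Tg(myl7:ATF3), and from wild-type siblings. The myl7 promoter drives the transgene in heart muscle cells. The 4 groups are Tg(myl7:ATF3) hearts at 12 months post-fertilization (mpf), wild-type hearts at 12 mpf, Tg(myl7:ATF3) hearts at 4 mpf and wild-type hearts at 4 mpf, with 3 biological replicates in each. No other allele or agent is named in the labels, and neither the sex of the fish nor the number of hearts behind a library is given there.

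An antisense transcript is read from the strand opposite a gene, and some act on that gene by altering its chromatin, its transcription or the stability of its messenger RNA. LincRNAs lie between genes, and processed transcript is an annotation term for a transcript without an open reading frame. In zebrafish most such transcripts are known by the name of the genomic clone that carries them, and no function has been assigned to them by the sources used here. Libraries were made with a 3' kit primed by oligo-dT, which reads the end of a polyadenylated RNA and keeps its strand.

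Because the RNA was taken from whole cardiac tissue, fewer cells of a type and less RNA per cell cannot be told apart. None of the 16 heart muscle cell markers looked for (myl7, tnnt2a and vmhc among them) was among the 400 genes, so the tissue label could not be checked with them, and the transgene's own gene was not analysed here. Of the markers of other cell types, hemgn of red blood cells and cldni of gill and skin epithelium had values. Values are FPKM (fragments counted per kilobase and scaled by library), and reads were recovered from them. Recovered reads outside the rRNA and mitochondrial genes ranged from 30614 to 49326 per library, and those on the noncoding transcripts ranged from 4186 to 13170. Of the reads recovered over the 400 genes, the rRNA and mitochondrial genes took 75.9% to 85.4% at 12 mpf and 94.2% to 96.2% at 4 mpf.

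The noncoding transcripts lay mostly opposite the end of a protein-coding gene. A protein-coding gene on the other strand overlapped 47 of the 56 or had its 3' end within 5000 bases of 3 more, so that 50 had such a partner and 18 had more than 1. In 28 transcripts the 3' end of a partner lay inside the transcript (in BX294113.1 on its first base), and in 18 others the nearest one lay outside it but within 5000 bases. In 14 of those 18 the noncoding transcript started opposite the partner's body, at a median of 626.5 bases inside the partner's 3' end (range 17 to 2607), and 12 of these 14 lay wholly within the partner. The other 4 faced the end of a partner that they did not overlap, at a median of 2665.5 bases (range 1336 to 4934). A further 4 transcripts overlapped a partner whose 3' end was farther away. These were BX248390.1 opposite txlnba (15020 bases), BX323875.1 opposite crfb4 (46128), BX510324.2 opposite ppp2r5a (103166) and CR626944.2 opposite rbms3 (215404).

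An opposite coding 3' end inside or within 5000 bases was found for 39 of the 41 antisense transcripts (95.1%), against 374 of the 630 antisense genes of the table not analysed here (59.4%). The same held for 2 of 6 lincRNAs (33.3%) against 9.75% of the other lincRNAs, and for 5 of 9 processed transcripts (55.6%) against 15.7% of the others. It held for 276 of the 333 protein-coding genes with values (82.9%) as well. Pooled over the 3 biotypes the share was 82.1%, close to that of the coding genes, while lincRNAs and processed transcripts were below it. Overlap itself was near complete for this biotype, with or without values: 41 of 41 were overlapped, against 94.9% of those not analysed here.

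**Figure D1:**
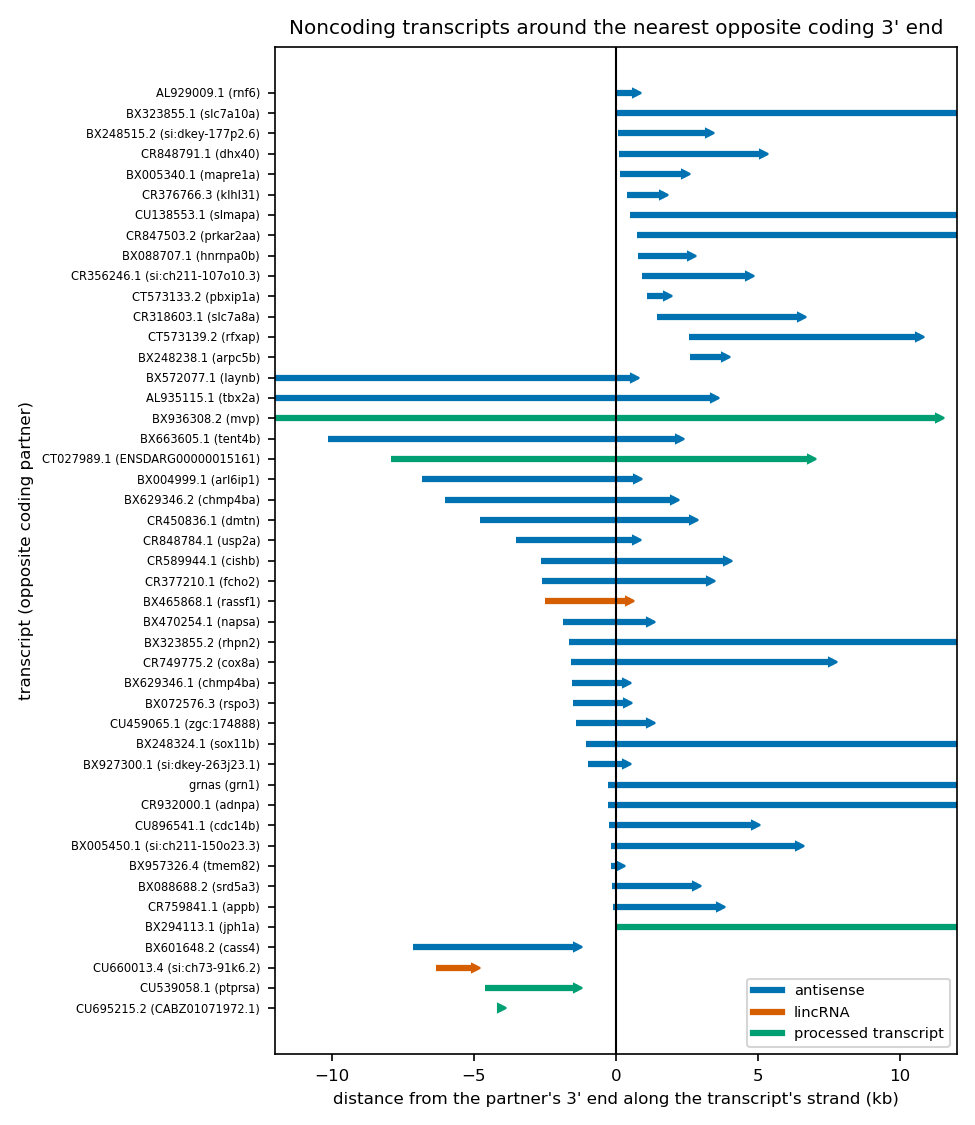
Position of 46 noncoding transcripts (bars, coloured by biotype, arrow pointing along transcription) around the nearest 3' end of a protein-coding gene on the opposite strand, named in brackets. The x axis is the distance from that 3' end in kilobases along the strand of the noncoding transcript. Bars that reach the edge run on beyond it. In 28 transcripts the bar covers the partner's 3' end at 0, which in BX294113.1 is the first base of the bar. In 14 the bar starts to the right of that end, opposite the partner's body, and in 4 it ends before it.

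The kit marks the strand, but the sources used here do not say how the counting used it, so reads of a noncoding transcript and of its opposite partner are not separable. Among the 68 distinct partners only mapre1a and rfxap had values of their own. Of the gene lists looked up, 1 transcript each lay opposite a gene of blood and immune cells (grnas, opposite the progranulin genes grn1 and grn2), of extracellular matrix and vessels (BX072576.3, opposite rspo3) and of mitochondrial energy metabolism (CR749775.2, opposite the cytochrome oxidase subunit gene cox8a). None lay opposite a gene on the lists for sarcomere and heart muscle, calcium handling and channels, ribosome and translation, or transcription and signalling. The lists do not hold every gene of these kinds: the partners tbx2a, rfxap and prkar2aa were on none of them. Neither were the partners klhl31, jph1a and slmapa, whose muscle or membrane roles are given below. The 6 transcripts without a partner were CR383676.2, CR383676.3, BX323041.1 and CABZ01038697.1 among the lincRNAs, and BX005108.2 and CR318674.1 among the processed transcripts.

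All 56 transcripts reached 1 FPKM in at least 3 libraries. Their mean levels over the 4 groups ranged from 8.06 to 9209 FPKM with a median of 93.8 FPKM, and the lengths behind these values ranged from 209 to 7477 bases. In processed transcripts the highest mean level was 265 FPKM. CR383676.3, a lincRNA at chromosome 14, 45636960 to 45638392 (GRCz11, plus strand), stood at the top. It was at 11346, 21899.5 and 13610.4 FPKM in Tg(myl7:ATF3) and 15537, 8801 and 15388 FPKM in wild-type hearts at 12 mpf. In 4 mpf hearts it was at 6873, 2768 and 3945 FPKM in Tg(myl7:ATF3) and 3051, 3478 and 3810.5 FPKM in wild-type hearts. All 6 libraries of 12 mpf were above all 6 of 4 mpf, and within each age the genotypes overlapped. This transcript alone held 26.5% to 63.6% of the summed FPKM of the 56. It lies inside the minus-strand lincRNA CR383676.2, which was low throughout, and the plus-strand transcript took 92.0% to 100% of the reads counted to the pair.

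**Figure D2:**
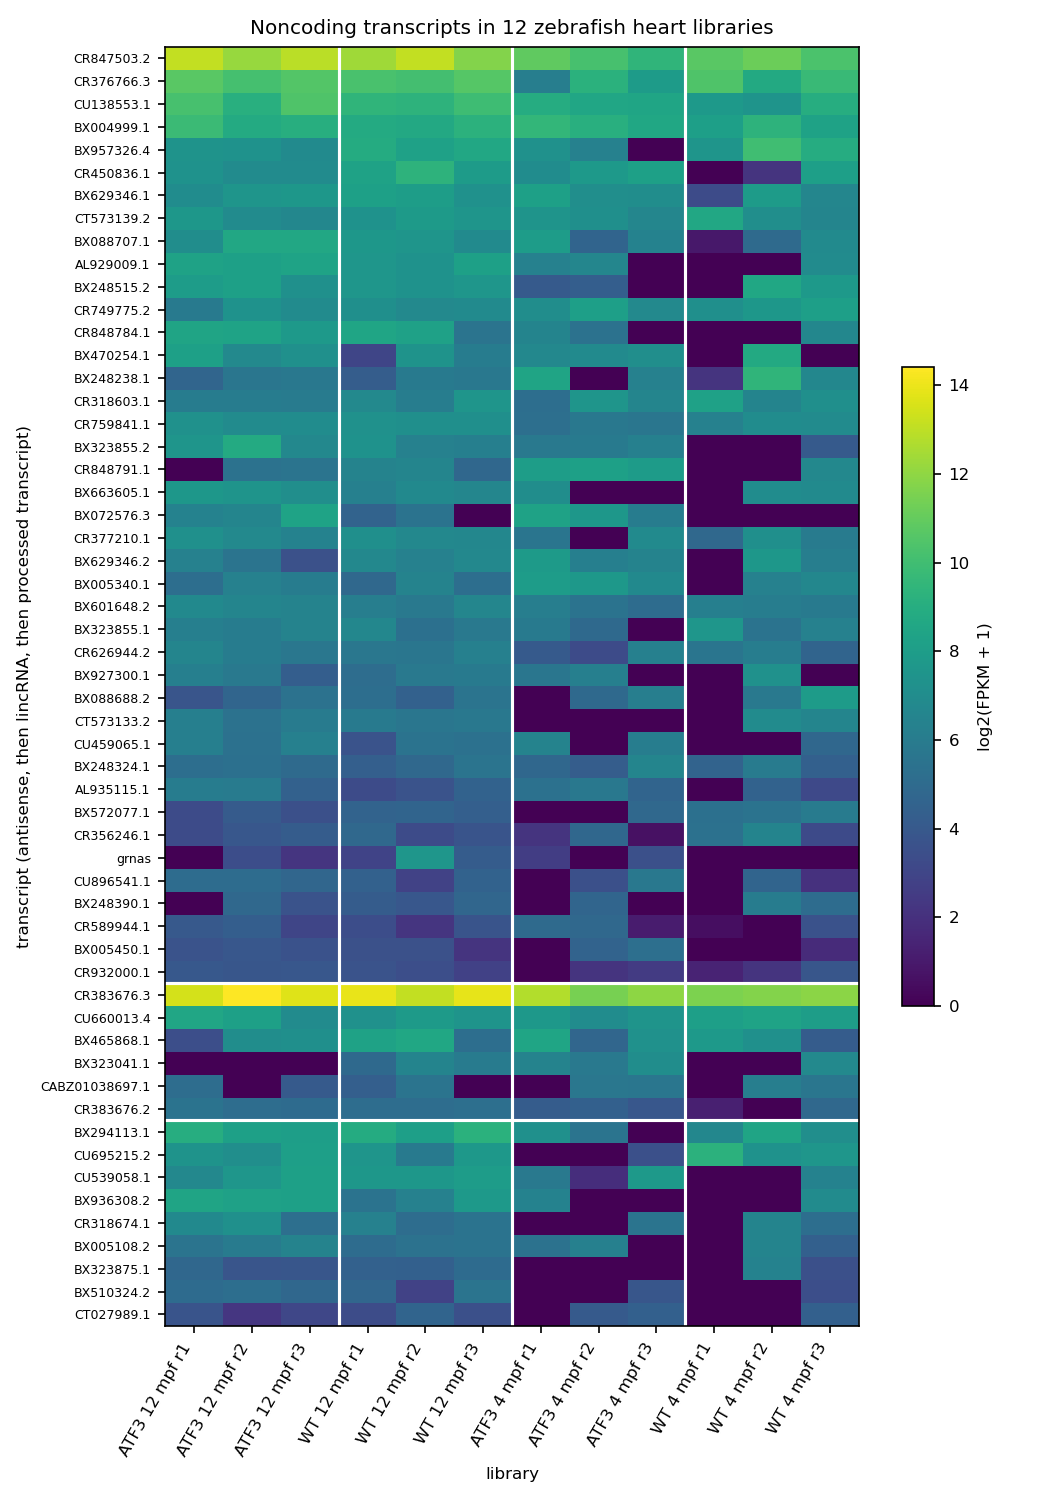
Levels of the 56 noncoding transcripts as log2(FPKM + 1), colour scale, in each of the 12 libraries (columns), ordered by biotype and by mean level within it. The darkest cells are values listed at 0. The 4 mpf columns hold most of the cells at 0, up to 29 transcripts in 1 wild-type library, while the 12 mpf columns hold at most 4.

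Antisense transcripts filled the next places. CR847503.2, at chromosome 8, 26329818 to 26368366, starts 749 bases inside the end of prkar2aa, the opposite gene, which codes for a regulatory subunit of protein kinase A. Its level was 8583, 4704 and 7653 FPKM in Tg(myl7:ATF3) and 5317, 8752 and 3439 FPKM in wild-type hearts at 12 mpf, and 1907, 1208 and 690.3 FPKM in Tg(myl7:ATF3) and 1719, 2360.1 and 1295 FPKM in wild-type hearts at 4 mpf. All 6 libraries of 12 mpf lay above all 6 of 4 mpf. CR376766.3, at chromosome 13, 2349076 to 2350355, starts 407 bases inside the end of klhl31, which codes for a kelch-like protein of muscle. It was at 1701, 1131 and 1480.2 FPKM in Tg(myl7:ATF3) and 1259.8, 1115 and 1543 FPKM in wild-type hearts at 12 mpf, and at 72.3, 586 and 244 FPKM in Tg(myl7:ATF3) and 1396, 438 and 868 FPKM in wild-type hearts at 4 mpf. The genotypes overlapped at both ages, and the lowest value came from a Tg(myl7:ATF3) library of 4 mpf.

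CU138553.1 starts 504 bases inside the end of slmapa, which codes for a sarcolemma-associated protein, and averaged 1039.7 ± 436 FPKM in Tg(myl7:ATF3) and 773 ± 189.8 FPKM in wild-type hearts at 12 mpf, with 398 ± 71.8 FPKM in Tg(myl7:ATF3) and 299 ± 181 FPKM in wild-type hearts at 4 mpf (SD, n = 3 each). BX004999.1 contains the end of arl6ip1, which codes for a protein that shapes the endoplasmic reticulum. It averaged 619.5 ± 237 FPKM in Tg(myl7:ATF3) and 491 ± 99.1 FPKM in wild-type hearts at 12 mpf, and 560.1 ± 186 FPKM in Tg(myl7:ATF3) and 416 ± 204 FPKM in wild-type hearts at 4 mpf (SD, n = 3 each). The genotypes overlapped at both ages in both of these transcripts. The processed transcript BX294113.1 starts on the base where jph1a ends and lies wholly within it on the other strand. The gene jph1a codes for a junctophilin that ties the cell membrane to the sarcoplasmic reticulum. BX294113.1 was at 501, 288 and 269.9 FPKM in Tg(myl7:ATF3) and 472, 282 and 586 FPKM in wild-type hearts at 12 mpf. The 4 mpf values were 151, 45.8 and 0 FPKM in Tg(myl7:ATF3) and 102, 347 and 139 FPKM in wild-type hearts. Both genotypes overlapped at each age there too.

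Detection followed the age of the fish. At 12 mpf 4, 2 and 1 of the 56 transcripts were listed at 0 in the Tg(myl7:ATF3) libraries and 0, 0 and 2 in the wild-type libraries. At 4 mpf the numbers were 13, 12 and 13 in the Tg(myl7:ATF3) libraries and 29, 15 and 4 in the wild-type libraries. Protein-coding genes showed the same, with 0.901% to 2.10% of the 333 at 0 in the 12 mpf libraries and 12.6% to 48.3% in the 4 mpf libraries. In the wild-type library of replicate 1 at 4 mpf, where 29 noncoding transcripts were at 0, 48.3% of the protein-coding genes were too. All 3 libraries were above 0 for 51 transcripts in Tg(myl7:ATF3) and 54 in wild-type hearts at 12 mpf, and for 29 in Tg(myl7:ATF3) and 25 in wild-type hearts at 4 mpf. Throughout the 12 libraries 17 transcripts were above 0, of which 14 were antisense, 3 were lincRNAs and none was a processed transcript.

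The share of the signal held by the 56 noncoding transcripts together differed by age as well. Shares are of the 400 genes with values, 1.23% of the genes in the table, and not of the whole library. Of their FPKM summed outside the rRNA and mitochondrial genes, the 56 transcripts held 53.1% ± 2.28 in Tg(myl7:ATF3) and 49.7% ± 3.02 in wild-type hearts at 12 mpf (SD, n = 3 each). At 4 mpf they held 31.3% ± 6.001 in Tg(myl7:ATF3) and 28.5% ± 5.61 in wild-type hearts (SD, n = 3 each). With all 56 counted, every 12 mpf library was above every 4 mpf library, and the genotypes overlapped at each age. As a share of recovered reads, which does not weight by length, it was 26.6% in Tg(myl7:ATF3) and 24.0% in wild-type hearts at 12 mpf, and 14.9% in Tg(myl7:ATF3) and 14.5% in wild-type hearts at 4 mpf. On that measure the genotypes did not overlap at 12 mpf, with 25.3% to 27.7% in Tg(myl7:ATF3) and 23.4% to 24.5% in wild-type libraries, and they overlapped at 4 mpf. At 12 mpf CR383676.3 took 2895, 6830 and 4433 reads in Tg(myl7:ATF3) and 4448, 2717 and 3260 in wild-type libraries. All 56 took 10376, 13170 and 12961 reads in Tg(myl7:ATF3) and 10237, 9613 and 7797 in wild-type libraries. Whether the genotypes stay apart in the read share without CR383676.3 was not tested. With CR383676.3 left out, the FPKM share was 36.0% in Tg(myl7:ATF3) and 33.4% in wild-type hearts at 12 mpf, and 20.9% in Tg(myl7:ATF3) and 21.7% in wild-type hearts at 4 mpf. That share still held CR847503.2, which averaged 6980 FPKM in Tg(myl7:ATF3) and 5836 FPKM in wild-type hearts at 12 mpf. At 4 mpf CR847503.2 averaged 1268 FPKM in Tg(myl7:ATF3) and 1791 FPKM in wild-type hearts. Whether the share of the remaining transcripts differed by age without both was not tested. The age difference is therefore stated for the 56 together and with only CR383676.3 left out. It is not stated for the transcripts that remain without both. Ranks of the 56 transcripts were closer between replicates at 12 mpf, with a Spearman's rho of 0.830 to 0.917 in Tg(myl7:ATF3) and 0.760 to 0.822 in wild-type hearts, than at 4 mpf, with 0.518 to 0.622 in Tg(myl7:ATF3) and 0.473 to 0.586 in wild-type hearts. These are correlations across transcripts, which are not independent replicates. The share of rRNA and mitochondrial reads and the number of genes at 0 differed between the ages in the same libraries, and their part in the age differences was not tested.

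**Figure D3:**
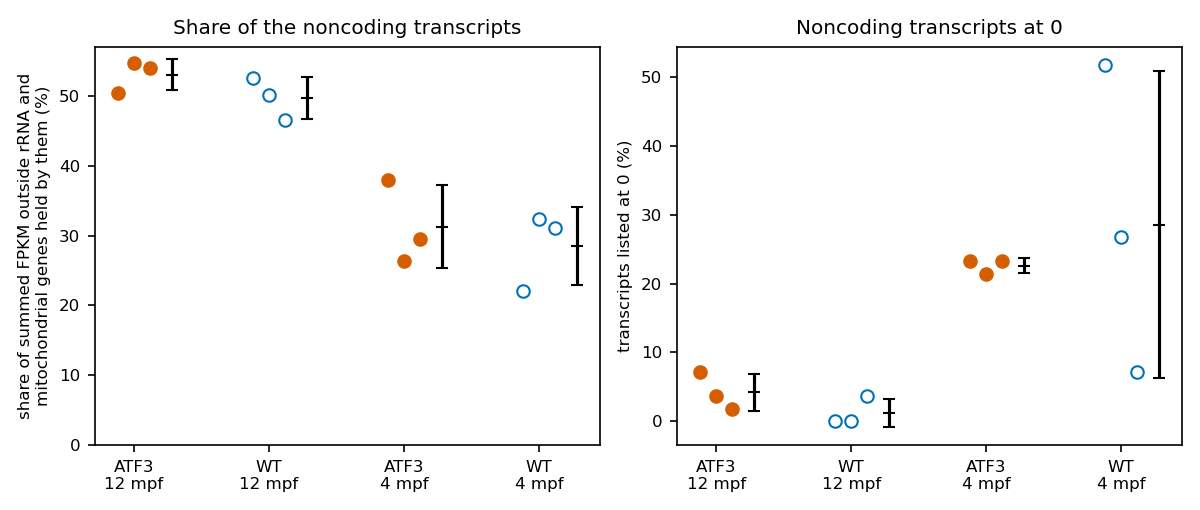
Left, percent held by the 56 noncoding transcripts of the FPKM summed over the 400 genes with values, without the rRNA and mitochondrial ones. Right, percent of the 56 listed at 0. Points are single libraries (filled Tg(myl7:ATF3), open wild type), and the bars beside them are the mean ± SD of 3 libraries. The share was 46.5% to 54.7% at 12 mpf and 22.1% to 38.0% at 4 mpf, and 0 to 4 transcripts were at 0 at 12 mpf and 4 to 29 at 4 mpf.

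The first comparison asked which noncoding transcripts differed early, at 4 mpf. BX072576.3 and BX323855.2 were higher in Tg(myl7:ATF3) hearts and CU695215.2 was lower (limma on log2(FPKM + 1), Benjamini-Hochberg adjusted p under 0.05 over all 400 genes). These 3 of 56 (5.36%) compare with 13 of all 400 genes (3.25%), with 2.75% of the 400 higher and 0.5% lower. At an unadjusted p under 0.05 there were 16 of 56, against 18.5% of all genes. Over all 56 the median log2 difference was 0.17, with 29 above 0, beside 0.25 over the 400 genes.

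The antisense transcript BX072576.3, at chromosome 16, 40338584 to 40340518, contains the end of rspo3, which codes for a secreted R-spondin that amplifies Wnt signalling. A second opposite gene, mettl6, which codes for a transfer RNA methyltransferase, overlaps it and has its 3' end 4854 bases away. The level of BX072576.3 at 4 mpf was 321, 195 and 65.6 FPKM in Tg(myl7:ATF3) hearts, from 117, 81 and 20 reads, and each of the 3 wild-type libraries was listed at 0. Its mean in Tg(myl7:ATF3) hearts, 194 FPKM, was 22.8-fold above a floor of 3 reads per wild-type library, which averages 8.504 FPKM. That floor covers counting error only, and 29, 15 and 4 of the 56 were at 0 in these wild-type libraries. The limma log2 difference was 7.34 (SE 1.34, adjusted p = 0.0101), and the groups did not overlap. At 12 mpf BX072576.3 did not pass (log2 3.76, limma adjusted p = 0.999). It was at 82.4, 94.9 and 334 FPKM in Tg(myl7:ATF3) and 23.4, 43.3 and 0 FPKM in wild-type hearts, again without overlap. Over both ages together it was the only one of the 56 to pass, beside 4 of 400 genes or 1% (0.75% of the 400 higher), with a log2 difference of 5.55 (SE 0.95, limma adjusted p = 0.0117). The call at 4 mpf was lost in 2 of 23 other settings, with library weights and with the 4 mpf groups fitted alone (adjusted p = 0.360 and 0.151, limma), and in none of the 12 that left out 1 library. Over both ages it was lost with library weights (adjusted p = 0.118, limma).

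CU695215.2 is a processed transcript of 209 bases at chromosome 19, 47574615 to 47574823, and ends 3988 bases before the end of the opposite gene CABZ01071972.1. At 4 mpf it was at 0, 0 and 10.5 FPKM in Tg(myl7:ATF3) hearts, from 0, 0 and 1 reads, and at 611, 164 and 193 FPKM in wild-type hearts, from 73, 19 and 19 reads. It fell by 6.90 on the log2 scale (SE 0.99, limma adjusted p = 0.00308). At 12 mpf it was at 168, 137 and 281 FPKM in Tg(myl7:ATF3) and 181, 59.3 and 202 FPKM in wild-type hearts. The genotypes were apart at 4 mpf and overlapped at 12 mpf. The change of the genotype effect between the ages passed for this transcript alone among the 56, beside 0.5% of all genes (at an unadjusted p under 0.05, 7 of the 56 and 8.25% of all genes), at a log2 difference of 7.42 (12 mpf minus 4 mpf, SE 1.40, limma adjusted p = 0.0482). It stood just under the threshold: the call was lost in 16 of 22 other settings, among them leaving out any 1 library other than replicate 3 of Tg(myl7:ATF3) or of wild type at 4 mpf (adjusted p = 0.0546 to 0.260, limma). The 4 mpf call was lost with library weights and with the 4 mpf groups alone (adjusted p = 0.0787 and 0.151, limma).

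BX323855.2 lies at chromosome 7, 38357915 to 38395068, and contains the end of rhpn2. At 4 mpf it was at 55.7, 61.2 and 76.1 FPKM in Tg(myl7:ATF3) and 0, 0 and 16.1 FPKM in wild-type hearts, so the groups were apart. It was higher by 4.65 on the log2 scale (SE 1.09, limma adjusted p = 0.0381). At 12 mpf, with 179, 442 and 106 FPKM in Tg(myl7:ATF3) and 162, 78.5 and 75.1 FPKM in wild-type hearts, the genotypes overlapped. The 4 mpf call was lost in 17 of 23 other settings, with an adjusted p of up to 0.479 (limma), and in 11 of the 12 that left out 1 library (0.0641 to 0.0849). Of those 12 only the one without replicate 3 of the wild type at 4 mpf kept it, and there 8 of the 56 (14.3%) passed instead of 3, and 37 of all 400 genes (9.25%) instead of 13. Without replicate 1 of that group 5 of the 56 and 16 of the 400 passed.

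In 10 of the 56 transcripts the 3 Tg(myl7:ATF3) libraries did not overlap the 3 wild-type ones at 4 mpf, 5 being higher and 5 lower. Over the 400 genes this held for 12%, with 7.25% higher and 4.75% lower. Apart from the 3 above, none of these passed the test. CR848791.1 begins 125 bases inside the end of dhx40, a gene of the DEAH-box helicase family, and was at 255, 291 and 240.0 FPKM in Tg(myl7:ATF3) and 0, 0 and 107 FPKM in wild-type hearts (log2 5.78, limma adjusted p = 0.169). AL935115.1 contains the end of tbx2a, which codes for a T-box factor of the atrioventricular canal, and was at 39.9, 53.3 and 23.9 FPKM in Tg(myl7:ATF3) and 0, 21.8 and 8.26 FPKM in wild-type hearts (log2 2.68, limma adjusted p = 0.234). All values on the transgenic side were the higher ones in both. Without replicate 3 of the wild type at 4 mpf, CR848791.1 passed (adjusted p = 0.00799, limma), while over its other settings the adjusted p reached 0.758.

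On the lower side were BX957326.4, BX572077.1, CR759841.1 and CU660013.4. BX957326.4 contains the end of the membrane protein gene tmem82 and was at 158, 80.8 and 0 FPKM in Tg(myl7:ATF3) and 180.4, 1007 and 485 FPKM in wild-type hearts at 4 mpf (log2 -4.24, limma adjusted p = 0.177). BX572077.1 contains the end of laynb, a layilin gene, which overlaps 1.07% of it. A second opposite gene, sik2b, overlaps 90.7% of it and has its 3' end 1083 bases away. BX572077.1 was at 0, 0 and 28.1 FPKM in Tg(myl7:ATF3) and 39.8, 43.2 and 63.1 FPKM in wild-type hearts (log2 -3.98, limma adjusted p = 0.122). BX957326.4 and BX572077.1 were listed at 0 in some transgenic libraries only. CR759841.1 contains the end of appb, an amyloid precursor protein gene, and averaged 46.9 ± 8.36 FPKM in Tg(myl7:ATF3) and 111 ± 28.4 FPKM in wild-type hearts (SD, n = 3 each; log2 -1.21, limma adjusted p = 0.184). On its own strand CR759841.1 is overlapped by gabpa, which had no values, and how reads were divided between them was not tested. CU660013.4, a lincRNA 4934 bases from the end of si:ch73-91k6.2, averaged 168 ± 38.9 FPKM in Tg(myl7:ATF3) and 289.9 ± 34.9 FPKM in wild-type hearts (SD, n = 3 each; log2 -0.80, limma adjusted p = 0.417). The groups did not overlap in any of these, with the transgenic libraries the lower ones.

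Both measured markers of other cell types were higher in each Tg(myl7:ATF3) library than in any wild-type library at 4 mpf. The red blood cell gene hemgn was at 33.8, 20.5 and 45.8 FPKM in Tg(myl7:ATF3) and 0, 0 and 6.09 FPKM in wild-type hearts, and the epithelial gene cldni was at 380.3, 112 and 357 FPKM in Tg(myl7:ATF3) and 41.0, 65.7 and 81.5 FPKM in wild-type hearts. They are the only ones with values of 8 red blood cell and 4 gill and skin markers, and their part in the differences at 4 mpf was not tested. At 12 mpf hemgn was at 9.22, 11.7 and 4.82 FPKM in Tg(myl7:ATF3) and 7.31, 11.9 and 9.87 FPKM in wild-type hearts, which overlapped, and cldni was at 120.3, 146 and 106 FPKM in Tg(myl7:ATF3) and 78.4, 103 and 138 FPKM in wild-type hearts, which overlapped too.

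At 12 mpf, the later stage, no noncoding transcript passed, nor did any of the 400 genes (limma, adjusted p under 0.05; background 0%). At an unadjusted p under 0.05 there were 3 of 56, against 3.25% of all genes, and limma voom on the recovered reads called 0 as well. The groups were apart in 14 of the 56, 8 higher and 6 lower, against 20% of the 400 genes, with 11.5% higher and 8.5% lower. The median log2 difference of the 56 was 0.23, beside 0.07 for all genes.

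BX323041.1, a lincRNA at chromosome 7, 54926474 to 54935564, had the largest difference. It was listed at 0 in all 3 Tg(myl7:ATF3) libraries at 12 mpf and at 29.9, 90.6 and 62.4 FPKM in wild-type hearts. Its wild-type mean of 60.9 FPKM was 7.69-fold above a floor of 3 reads per Tg(myl7:ATF3) library, averaging 7.92 FPKM. The fitted log2 difference was -5.82 (SE 1.53, limma adjusted p = 0.852). At 4 mpf it was at 84.9, 56.9 and 134 FPKM in Tg(myl7:ATF3) and 0, 0 and 109 FPKM in wild-type hearts. The groups were apart at 12 mpf and overlapped at 4 mpf, with the transgenic libraries at the low end at 12 mpf and above 0 at 4 mpf. The change of the genotype effect did not pass (log2 -10.01, limma adjusted p = 0.0813). At 12 mpf the transcript did pass with library weights, with the 12 mpf groups alone and without replicate 3 of the wild type at 4 mpf, with an adjusted p of 0.000323, 0.00048 and 0.00296 (limma). In the other settings it did not. It has no opposite partner, and the nearest protein-coding gene, tpcn2, is 69665 bases away on the same strand.

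Other transcripts with groups apart at 12 mpf had smaller differences, here each with a limma adjusted p of 0.999. BX936308.2, which contains the end of mvp, the major vault protein gene, was at 341, 307 and 291 FPKM in Tg(myl7:ATF3) and 43.96, 78.4 and 215 FPKM in wild-type hearts. CU896541.1, opposite the phosphatase gene cdc14b, averaged 30.8 ± 4.15 FPKM in Tg(myl7:ATF3) and 16.6 ± 9.07 FPKM in wild-type hearts (SD, n = 3 each). BX663605.1 contains the end of tent4b, which codes for a poly(A) polymerase, and a second opposite gene, adcy7, overlaps 61.0% of it. BX663605.1 averaged 169 ± 30.6 FPKM in Tg(myl7:ATF3) and 96.1 ± 18.5 FPKM in wild-type hearts (SD, n = 3 each). These 3 were the higher in the transgenic hearts, as was the partnerless BX005108.2 with 65.2 ± 21.1 FPKM in Tg(myl7:ATF3) and 40.01 ± 6.08 FPKM in wild-type hearts (SD, n = 3 each). CR450836.1, which contains the end of dmtn, a gene of the red cell cytoskeleton protein dematin, averaged 137 ± 22.1 FPKM in Tg(myl7:ATF3) and 402 ± 218 FPKM in wild-type hearts (SD, n = 3 each). BX629346.2, opposite the ESCRT-III gene chmp4ba, averaged 45.1 ± 33.98 FPKM in Tg(myl7:ATF3) and 96.7 ± 14.1 FPKM in wild-type hearts (SD, n = 3 each). Both were on the lower side at 12 mpf. The log2 differences of these 6 at 12 mpf, in the order given, were 1.77, 1.03, 0.81, 0.65, -1.43 and -1.45. At 4 mpf they were -0.18, 0.87, -2.29, 0.26, 4.24 and 2.23 in the same order, and none passed. CR450836.1 was then at 130, 218 and 297 FPKM in Tg(myl7:ATF3) and 0, 3.55 and 279 FPKM in wild-type hearts. Without replicate 3 of the wild type at 4 mpf, CR450836.1 passed as higher at 4 mpf and over both ages.

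The transgenic libraries lay on the same side at both ages in 3 of the 56 transcripts, against 10 of 400 genes (2.5%), and in none did they change sides without overlap. BX072576.3 was the higher one. BX957326.4 was on the lower side at 12 mpf too, with 167, 159.6 and 120.0 FPKM in Tg(myl7:ATF3) and 459, 305 and 394 FPKM in wild-type hearts, and so was BX572077.1, with 8.74, 16.7 and 10.3 FPKM in Tg(myl7:ATF3) and 23.4, 24.1 and 19.3 FPKM in wild-type hearts. Neither passed at either age or over both ages (log2 -2.80 and -2.44, limma adjusted p = 0.304 and 0.273). Without replicate 3 of Tg(myl7:ATF3) at 4 mpf, BX572077.1 passed at 4 mpf (log2 -5.60, adjusted p = 0.00300, limma) and over both ages, and it passed at 4 mpf with limma voom on recovered reads (adjusted p = 0.0493). Leaving out 1 library at a time, 1 to 4 of the 56 and 3 to 14 of all 400 genes passed over both ages, BX072576.3 each time among them, and both counts were highest without replicate 3 of the wild type at 4 mpf. The only transcript of the set with a gene symbol, grnas, was at 0, 9.77 and 3.74 FPKM in Tg(myl7:ATF3) and 6.39, 193 and 17.3 FPKM in wild-type hearts at 12 mpf. At 4 mpf it was at 5.26, 0 and 10.5 FPKM in Tg(myl7:ATF3) hearts and listed at 0 in all 3 wild-type libraries. Its highest value came from 1 wild-type library, and the genotypes overlapped at both ages.

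**Figure D4:**
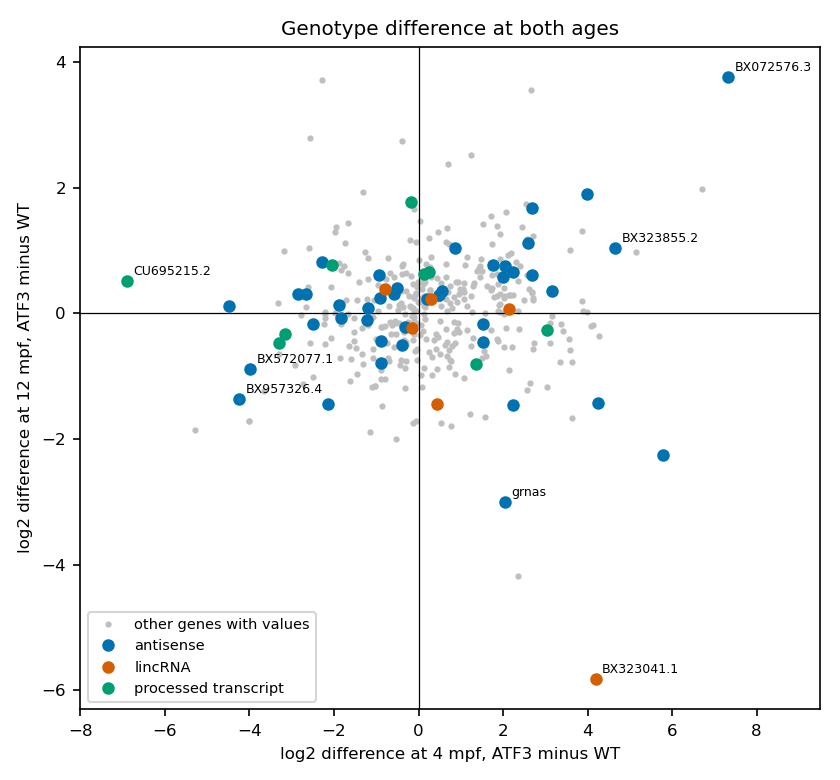
Log2 difference of Tg(myl7:ATF3) minus wild type at 4 mpf (x axis) and at 12 mpf (y axis) for each of the 56 noncoding transcripts (large points, coloured by biotype) and the other genes with values (small grey points), from the limma fit on log2(FPKM + 1). Differences of the noncoding transcripts run from -6.90 to 7.34 at 4 mpf and from -5.82 to 3.76 at 12 mpf. BX072576.3 stands far right, CU695215.2 far left and BX323041.1 lowest.

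Few noncoding transcripts passed the test between the ages. In Tg(myl7:ATF3) hearts 5 of the 56 differed between 12 and 4 mpf, against 3.5% of all genes: CR383676.3, CR847503.2, CR376766.3 and CU695215.2 rose and BX323041.1 fell (limma, adjusted p under 0.05), while 2% of all genes rose and 1.5% fell. In wild-type hearts CR383676.3 and BX323855.2 rose, 2 of the 56 against 4% of all genes (3% higher). The median log2 difference of the 56 was 1.40 in Tg(myl7:ATF3) hearts, with 42 (75%) above 0, and 1.57 in wild-type hearts, with 45 (80.4%) above 0. Over the 400 genes it was 0.64 in Tg(myl7:ATF3) hearts, with 66.5% above 0, and 1.03 in wild-type hearts, with 74.5% above 0. When libraries were scaled to equal sums outside the rRNA and mitochondrial genes, the medians of the 56 became 0.75 in Tg(myl7:ATF3) hearts, with 34 above 0, and 1.12 in wild-type hearts, with 40 above 0. Those were 60.7% and 71.4% of the 56. Over all genes the medians became 0.01 in Tg(myl7:ATF3) hearts, with 50.2% above 0, and 0.66 in wild-type hearts, with 65.2% above 0. Under that scaling CU695215.2 and BX323041.1 passed in Tg(myl7:ATF3) hearts, beside 13 of all 400 genes (3.25%). None of the 56 passed in wild-type hearts, beside 6 of the 400 (1.5%). In Tg(myl7:ATF3) hearts the count of 5 ran from 0 without replicate 3 of Tg(myl7:ATF3) at 12 mpf, where 0 of all 400 genes passed too, to 9 without replicate 1 of the wild type at 4 mpf, where 24 of the 400 (6%) passed. Groups were apart in 23 of the 56 in Tg(myl7:ATF3) hearts, against 33.5% of all genes, with 20 higher (22.2% of all genes) and 3 lower (11.2%) at 12 mpf. In wild-type hearts they were apart in 13, against 24.2% of all genes, with 11 higher (16.8% of all genes) and 2 lower (7.5%).

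CR383676.3 rose with age in both genotypes, by 1.83 on the log2 scale in Tg(myl7:ATF3) hearts (SE 0.39, limma adjusted p = 0.0319) and by 1.90 in wild-type hearts (SE 0.39, limma adjusted p = 0.0180). The library values given above were apart between the ages in each genotype. Leaving out replicate 2 or 3 of the Tg(myl7:ATF3) hearts of either age ended the first call (adjusted p = 0.0762 to 0.127, limma). Leaving out replicate 1 of the wild type at either age, or replicate 3 at 12 mpf, ended the second (0.0662 to 0.0987, limma). Scaling to equal sums ended both calls, at a log2 of 1.01 in Tg(myl7:ATF3) and 1.45 in wild-type hearts (adjusted p = 0.152 and 0.0568, limma), and so did library weights and a fit without trend and robust. The call in Tg(myl7:ATF3) hearts was lost in 9 and that in wild-type hearts in 6 of 23 other settings.

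CR847503.2 rose in Tg(myl7:ATF3) hearts by 2.53 on the log2 scale (SE 0.45, limma adjusted p = 0.0190). In wild-type hearts the log2 difference of 1.64 did not pass (limma adjusted p = 0.0662), and whether the 2 changes differ is what the interaction tests (log2 0.89, limma adjusted p = 0.870). The ages did not overlap in either genotype. Without replicate 3 of the Tg(myl7:ATF3) hearts at 12 or at 4 mpf the call was lost (adjusted p = 0.0682 to 0.0841, limma), as it was without trend and robust (0.0954) and with equal sums, at a log2 of 1.71 (0.0582).

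CR376766.3, which lies wholly within klhl31 on the other strand, rose in Tg(myl7:ATF3) hearts by 2.69 on the log2 scale (SE 0.64, limma adjusted p = 0.0424). That call was ended by 13 of 23 other settings, 8 of them by leaving out 1 library (0.0545 to 0.147, limma). Those 8 were any library of 12 mpf and replicates 1 and 3 of Tg(myl7:ATF3) at 4 mpf. CU695215.2 rose by 6.37 (SE 0.99, limma adjusted p = 0.0141), and its call was lost without replicate 3 of Tg(myl7:ATF3) at 12 mpf (0.0841, limma) and with limma voom on recovered reads (0.0615). BX323041.1 was listed at 0 in all 3 Tg(myl7:ATF3) libraries at 12 mpf, against 84.9, 56.9 and 134 FPKM in Tg(myl7:ATF3) hearts at 4 mpf. The 4 mpf mean of 91.8 FPKM was 11.6-fold above the floor of 3 reads per library at 12 mpf. The difference passed (limma log2 -6.45, SE 1.53, adjusted p = 0.0424). That call was lost on leaving out any library but the wild-type ones of 4 mpf (0.0545 to 0.141, limma). In wild-type hearts BX323855.2 rose by 5.27 (SE 1.09, limma adjusted p = 0.0180), and lost its call without any 1 wild-type library of 12 mpf or replicate 1 of 4 mpf (0.0611 to 0.0987, limma).

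Several large differences with age rested on values of 0 at 4 mpf and did not pass in the main fit. In Tg(myl7:ATF3) hearts CT573133.2, which begins 1097 bases inside the end of pbxip1a, was at 72.5, 42.8 and 63.1 FPKM at 12 mpf and listed at 0 in all 3 libraries at 4 mpf (log2 5.88, limma adjusted p = 0.0581). BX936308.2, opposite mvp, was at 341, 307 and 291 FPKM at 12 mpf and 83.5, 0 and 0 FPKM at 4 mpf (log2 6.16, limma adjusted p = 0.136). BX663605.1 and BX248515.2 had log2 differences of 5.04 and 5.02 with adjusted p of 0.217 and 0.194 (limma). Of 23 other settings, CT573133.2 passed in 6, BX936308.2 in 4, and BX663605.1 and BX248515.2 in 2 each. All 4 were above their 4 mpf values in each 12 mpf library. In the other direction, CR848791.1 was at 0, 42.4 and 46.4 FPKM in Tg(myl7:ATF3) hearts at 12 mpf and 255, 291 and 240.0 FPKM at 4 mpf (log2 -4.37, limma adjusted p = 0.238).

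In wild-type hearts CU539058.1, 1343 bases from the end of the receptor phosphatase gene ptprsa, was at 199.5, 199 and 254 FPKM at 12 mpf and 0, 0 and 82.5 FPKM at 4 mpf (log2 5.63, limma adjusted p = 0.0873). AL929009.1, which begins 17 bases inside the end of rnf6, a ubiquitin ligase gene, was at 191, 163 and 295 FPKM at 12 mpf and 0, 0 and 122 FPKM at 4 mpf (log2 5.40, limma adjusted p = 0.127). A second opposite gene, atp8a2, also overlaps 100% of AL929009.1. The lincRNA CR383676.2 was at 33.98, 34.3 and 37.9 FPKM at 12 mpf and 1.40, 0 and 28.4 FPKM at 4 mpf (log2 3.14, limma adjusted p = 0.128). Ages were apart in each, and each had at least 1 wild-type library at 0 at 4 mpf. For grnas the log2 difference was 4.89 (limma adjusted p = 0.0662). Of 23 other settings, grnas passed in 3, CU539058.1 in 2, and AL929009.1 and CR383676.2 in 1 each. On the lower side at 12 mpf were BX572077.1 (log2 -1.07) and CU660013.4 (log2 -0.66), with adjusted p of 0.593 and 0.397 (limma). Without replicate 3 of the wild type at 4 mpf 13 of the 56 (23.2%) and 71 of all 400 genes (17.8%) passed in wild-type hearts, the 13 all higher at 12 mpf. Without replicate 1 of that group 0 of the 56 and 6 of the 400 passed.

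At 2 loci both a noncoding transcript and its protein-coding partner had values. BX005340.1 begins 151 bases inside the end of mapre1a, which codes for the microtubule end-binding protein EB1. At 4 mpf BX005340.1 was at 246, 205 and 113 FPKM in Tg(myl7:ATF3) and 0, 78.8 and 101 FPKM in wild-type hearts (log2 3.16, limma adjusted p = 0.266), and mapre1a was at 56.1, 74.0 and 11.8 FPKM in Tg(myl7:ATF3) and 69.5, 2.56 and 19.3 FPKM in wild-type hearts. Of the reads counted to the pair, the antisense transcript took 0% to 95.1% over the 12 libraries, with a median of 66.4%. The wild-type library of 4 mpf in which it took none, replicate 1, had 140 reads on mapre1a. At 12 mpf BX005340.1 was at 36.7, 80.1 and 64.5 FPKM in Tg(myl7:ATF3) and 28.8, 85.5 and 36.2 FPKM in wild-type hearts.

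CT573139.2 begins 2580 bases inside the end of rfxap, which codes for a factor of major histocompatibility class II transcription. It was at 194, 122 and 100.5 FPKM in Tg(myl7:ATF3) and 159.7, 234 and 184 FPKM in wild-type hearts at 12 mpf, where rfxap was at 212, 136 and 103 FPKM in Tg(myl7:ATF3) and 35.5, 148 and 66.8 FPKM in wild-type hearts. It was at 174, 142 and 97.5 FPKM in Tg(myl7:ATF3) and 407, 139 and 94.5 FPKM in wild-type hearts at 4 mpf, where rfxap was at 87.7, 46.9 and 187 FPKM in Tg(myl7:ATF3) and 0, 11.3 and 36.8 FPKM in wild-type hearts. The antisense share of the pair's reads ran from 32.4% to 100%, with a median of 67.4%. The highest share came from the wild-type library of 4 mpf in which rfxap was listed at 0. BX629346.1 and BX629346.2, both opposite chmp4ba, overlap on the same strand, and the first took 63.9% to 100% of the pair's reads, so their values depend on how shared reads were divided.

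The transcripts named by rule come to 29 of the 56. The other 27 ranged in mean level from 8.06 FPKM for CR932000.1, opposite the ADNP homeobox gene adnpa, upward, and none of them passed in any of the 6 comparisons (limma, adjusted p under 0.05). Some are given here, chosen after their values were seen, for how evenly or unevenly they were measured. BX601648.2 is overlapped over 9.68% of its span by the opposite gene fam120a, and the opposite gene cass4 has its 3' end 1336 bases away. BX601648.2 averaged 98.1 ± 15.4 FPKM in Tg(myl7:ATF3) and 74.8 ± 20.1 FPKM in wild-type hearts at 12 mpf, and 49.2 ± 19.6 FPKM in Tg(myl7:ATF3) and 67.3 ± 8.07 FPKM in wild-type hearts at 4 mpf (SD, n = 3 each). CR749775.2, opposite cox8a, was at 60.1, 164 and 123 FPKM in Tg(myl7:ATF3) and 145, 109 and 121 FPKM in wild-type hearts at 12 mpf, and at 134, 277 and 110.4 FPKM in Tg(myl7:ATF3) and 144, 194 and 282 FPKM in wild-type hearts at 4 mpf. Both were above 0 in all 12 libraries, and the genotypes overlapped at each age, while BX601648.2 was apart between the ages in Tg(myl7:ATF3) hearts.

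Others differed widely between replicates. BX248238.1, which begins 2607 bases inside the end of the actin-related complex subunit gene arpc5b, was at 24.9, 48.9 and 54.6 FPKM in Tg(myl7:ATF3) and 17.8, 57.6 and 53.99 FPKM in wild-type hearts at 12 mpf, and at 339.7, 0 and 78.6 FPKM in Tg(myl7:ATF3) and 3.49, 698 and 102 FPKM in wild-type hearts at 4 mpf. The lincRNA BX465868.1, which contains the end of the tumour suppressor gene rassf1, was at 10.02, 135 and 145 FPKM in Tg(myl7:ATF3) and 317, 377 and 36.2 FPKM in wild-type hearts at 12 mpf. In 4 mpf hearts its values were 356, 25.8 and 158 FPKM in Tg(myl7:ATF3) and 224, 148 and 17.02 FPKM in wild-type hearts. In both, replicates of a group ran from low to high values and the genotypes overlapped at 4 mpf. Over the 56 transcripts the median SE of a log2 difference was 1.33 in each comparison of 2 groups, beside 1.15 over all 400 genes.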

How the data were processed

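Cardiac RNA was measured in 12 libraries made with a strand-marking 3' kit, 3 for each genotype and age, grouped by their titles and genotype labels. The deposited values were FPKM as made by the authors. Trim Galore, STAR, RSEM, DESeq2 and the build GRCz11 are named in the submitters' processing notes, without versions, strand setting or annotation release. Of the 32520 genes in the table, 400 held values. The noncoding transcripts and the gene lists were chosen with earlier results of these data known.

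A factor per library and a length per gene were solved from the FPKM, and each value of the 400 genes came out whole to within 0.0001 reads. FPKM divide by a length although reads lie at 3' ends, so levels of long transcripts are understated. Where a group was listed at 0, the mean of the other group was set against a floor of 3 reads per library. That floor covers counting error only. Partners were found by coordinates in the table.

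All 400 genes passed a filter of 1 FPKM or more in 3 or more libraries. Their log2(FPKM + 1) was fitted with limma 3.58.1 in R 4.3.3 (trend and robust), 1 mean per group over 12 libraries, two-sided, with Benjamini-Hochberg adjustment over all genes and a threshold of 0.05. The 6 comparisons share groups. Steps were checked on simulated data. Named are transcripts that passed, up to 5 higher and 5 lower with groups apart per comparison of 2 groups, the 8 with the highest mean and grnas. Of the 56 identifiers, 47 were in the gene name table. No sequence is printed. Other settings were pseudocounts, filters, scalings, library weights, a block for replicate number, single groups, libraries left out and, added after seeing the data, limma voom on recovered reads and the share without CR383676.3.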

Additional observations from a re-analysis of the deposited data

Results flagged for a closer look

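The processed transcript CU695215.2 differed between the ages in its genotype effect, with a log2 interaction of 7.42 (12 mpf minus 4 mpf, SE 1.40, limma adjusted p = 0.0482). The Tg(myl7:ATF3) libraries were lower than the wild-type ones in 3 of 3 cases at 4 mpf and overlapped them at 12 mpf. The call was lost in 16 of 22 other settings, with an adjusted p of up to 0.260 (limma). Its values rest on 0, 0 and 1 reads in Tg(myl7:ATF3) hearts and 73, 19 and 19 reads in wild-type hearts at 4 mpf.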

How the results depend on the processing

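Of 941 values of the named transcripts under other settings, 823 kept their direction and side of the threshold, 90 lost a call, 28 gained one and 0 reversed. Reversals were limited in advance. Leaving out a library outside a comparison of 2 groups does not move its log2 difference. Where groups did not overlap, by which many transcripts were named, leaving out 1 library cannot reverse the direction. Counts of the 56 that passed moved more. The main counts were 3 at 4 mpf, 0 at 12 mpf, 1 over both ages, 1 for the interaction, 5 with age in Tg(myl7:ATF3) and 2 with age in wild-type hearts. Leaving out 1 library gave 2 to 8, 0 to 1, 1 to 4, 0 to 5, 0 to 9 and 0 to 13 in the same order, and 9 to 37, 0 to 1, 3 to 14, 0 to 15, 0 to 24 and 4 to 71 of all 400 genes, against 13, 0, 4, 2, 14 and 16. Most of the highest counts came without replicate 3 of the wild type at 4 mpf. Library weights gave 0, 1, 0, 2, 10 and 0 (0, 2, 2, 3, 20 and 1 of all genes). Fitting the compared groups alone gave 0 at 4 mpf, 1 at 12 mpf and 1 with age in wild-type hearts (0, 1 and 28 of all 400 genes). A pseudocount of 5 gave 2 over both ages (5 of all genes). One of 0.1 gave 0 for the interaction, as did median-of-ratios scaling (0 of all genes in both). Scaling to equal sums gave 0 for the interaction, 2 with age in Tg(myl7:ATF3) and 0 in wild-type hearts (0, 13 and 6 of all genes). Without trend and robust these were 0, 1 and 1 (1, 2 and 11 of all genes). Limma voom on recovered reads gave 0 for the interaction and 4 with age in wild-type hearts. Over all 400 genes voom called 21, 0, 5, 1, 23 and 27. Why the counts moved was not tested.

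With a replicate block 2 passed over both ages, 0 for the interaction and 2 with age in Tg(myl7:ATF3) hearts (5, 0 and 6 of all genes). The labels give no shared litter or day to equal numbers, and the 18 same-number pairs correlated at -0.411 to 0.0761, so the numbers were not taken to pair samples. The 36 pairs of unequal number correlated at -0.188 to 0.404, with 6 over 0.1. The highest was replicate 2 of Tg(myl7:ATF3) with replicate 3 of the wild type at 12 mpf. The main fit holds no term for such pairs, and what they share was not tested.

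When rRNA and mitochondrial genes were counted in, the noncoding share of the FPKM of the 400 genes fell to 5.89% in Tg(myl7:ATF3) and 4.65% in wild-type hearts at 12 mpf. At 4 mpf it fell to 1.29% in Tg(myl7:ATF3) and 1.05% in wild-type hearts. With those genes left out, the share of reads was 26.6%, 24.0%, 14.9% and 14.5% in the same order. The FPKM share with those genes and CR383676.3 left out was 36.0%, 33.4%, 20.9% and 21.7%. With 4186 to 13170 reads on these transcripts per library, single values of 0 at 4 mpf cover up to 3 reads by counting error alone.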
